A study of Mus musculus with 6 samples.

Results

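Heat shock chaperones are proteins that fold newly made or damaged proteins, and their messenger RNA was followed here in the lymphocytes of the mouse gut lining. Every probe set of the array whose gene symbol was Hsp90aa1, Hsp90ab1, Hspa1a, Hspa8, Dnaja1, Hspd1, Hspe1 or Hspa5 was taken. This gave 9 of 12488 probe sets, for 7 of the 8 genes and of 8251 genes in all. No probe set carried the symbol Hsp90ab1 in the annotation used, and that gene was not analysed here. Of the 9 probe sets, 5 belong to chaperones of the cytosol, 3 to those of the mitochondria and 1 to that of the endoplasmic reticulum, and 8 passed the filter on dim probe sets.

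The study sorted 3 subsets of intraepithelial lymphocytes (IEL), T cells that live between the epithelial cells of the small intestine. The mice were untreated C57BL/6 animals under 8 weeks of age, and the cells were used freshly isolated, without culture. In each of 2 experiments, done on separate occasions, IEL from a pool of 20 mice were sorted into TCRab CD8aa, TCRab CD8ab and TCRgd CD8aa cells, and the total RNA of each subset was put on 1 Affymetrix array. Each name joins the T cell receptor type to the form of the CD8 coreceptor. CD8ab is the form of conventional cytotoxic T cells, and CD8aa is common on the unconventional T cells of the gut. Titles of the gamma delta samples spell the receptor TCRgb, while their source names spell it TCRgd, which was used. Each subset thus had 2 arrays, 1 per experiment, and each experiment 3. All 6 samples shared the strain, the tissue and the pooling of mice, and how the lymphocytes were freed from the tissue is not given in the sources used here. Since each array holds RNA of a pool, no test measures the spread between mice. Each experiment had 1 pool, so its 3 arrays are not separate pools. A comparison of the experiments sets 1 pool against 1 pool, judged by the scatter between subsets. Subset comparisons rest on the 2 pools, and with the experiment as a block their tests leave out the difference between pools.

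Chaperones of the Hsp70 and Hsp90 families bind unfolded stretches of other proteins and release them in cycles driven by ATP, helped by J-domain proteins such as Dnaja1. When proteins misfold in the cytosol, heat shock factor 1 binds heat shock elements in DNA and turns on the inducible members. Misfolding in the endoplasmic reticulum instead sets off the unfolded protein response, whose best known target is Hspa5.

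Promoters are shown first, for letters of the heat shock element, the site of heat shock factor 1. Of the 5 members searched, 4 had a match to the short pattern given below near a start of transcription and Hspa5 did not. Hspa1a and Dnaja1 had 1 match each. The sequences come from RefSeq on build GRCm38.p6, run 5′ to 3′ on the strand of the gene, and have the element in capitals. An element was counted where GAANNTTC or TTCNNGAA, each its own reverse complement, lay within the 250 bases before a start.
Hspa1a, chr17:34972242-34972271, minus strand: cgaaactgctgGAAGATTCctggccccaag
Dnaja1, chr4:40722333-40722362, plus strand: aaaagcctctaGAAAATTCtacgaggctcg
Hspd1, chr1:55088053-55088082, minus strand: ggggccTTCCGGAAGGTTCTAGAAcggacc
Hspe1, chr1:55088053-55088082, plus strand: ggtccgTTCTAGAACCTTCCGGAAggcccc
Hspa5, chr2:34772020-34772048, plus strand: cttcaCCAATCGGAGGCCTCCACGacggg

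The element of Hspa1a began 104 bases before the start, and that of Dnaja1 124 bases before the first of its 3 listed starts. Hspd1 and Hspe1 lie head to head on chromosome 1 and share 1 stretch of 18 bases that holds 3 overlapping matches. That stretch began 89 bases before the start of Hspe1 and 144 bases before the second listed start of Hspd1. The capitals of Hspa5 mark the endoplasmic reticulum stress element, the site of the unfolded protein response, which began 65 bases before the start and includes 1 of the 4 CCAAT boxes counted on both strands of that window. No heat shock element was in the Hspa5 window. Elements of either order were found in 12.8% of the 32851 windows in the table, GAANNTTC in 6.69% and TTCNNGAA in 7.17%. CCAAT boxes were in 33.8% of them and endoplasmic reticulum stress elements in 0.113%. The table held 8 windows of 5 of the 8 genes, and 4 of these 8 windows, in 4 genes, had a heat shock element, with the stretch between Hspd1 and Hspe1 counted for both. Hsp90aa1, Hspa8 and Hsp90ab1 had no window in the table and were not searched. Such a match is a description of letters and not a measured binding site.

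Signal on the arrays is in MAS5 units, a linear intensity scaled to the same trimmed mean on every array, and comparisons are differences of log2 signal. Median signal was 83.4 to 113.4 per array. Among the sorting markers, Cd8b1, the beta chain of CD8, had signals of 17647 and 27590.5 in TCRab CD8ab and 28.1 to 763 on the other 4 arrays, and the T cell genes Cd3e, Cd8a and Itgae were above the filter on all 6. Trgv4, a variable segment of the T cell receptor gamma chain, was highest in TCRgd CD8aa, at 35231.2 and 19622.3, but also gave 8288.8 and 6261.3 in TCRab CD8aa and 3014.9 and 1713.8 in TCRab CD8ab. The 2 experiments differed in RNA quality. In experiment 1 the beta-actin control probe sets had a 3′ over 5′ ratio of 1.41 to 1.76, against 40.4 to 52.2 in experiment 2, and for Gapdh the ratio was 3.38 to 5.2 against 22.3 to 29.6. These ratios rise when RNA is degraded or its copies are short. The array of TCRgd CD8aa in experiment 2 also stood apart by its signal of other cells. Of 16 enterocyte markers, 14 were on the array, and their summed signal was 27208.9 there and 1182.7 to 2586.3 on the other 5. On that array 13 of the 14 lay above the filter and 0 at the floor, against 6 to 12 and 1 to 4 on the others. Fabp1, a fatty acid binding protein of enterocytes, had 5133.9 against 136.4 to 491.8 elsewhere. Cdh1 (209 against 167.8 to 267.8) and the dim Rbp2 were not highest there. Krt18 (91.4 against 21.6 to 91.1) and Epcam (693.8 against 38.1 to 617) were only slightly above the next array. Summed markers of B and plasma cells (6 of 7 genes) were 5262 there, of which Jchain gave 4022.8, against 772.8 to 1384.6 elsewhere. Jchain is the joining chain of secreted antibodies. The B cell genes Ms4a1, Cd79a and Blk were highest in TCRab CD8ab of experiment 2. Cd79b (744.1 against 422.5 to 628.6) and Cd22 (79.7 against 10.4 to 20) were highest in TCRgd CD8aa of experiment 2. Summed markers of goblet, Paneth and endocrine cells (5 of 8) were 2251.1 against 205.5 to 401.1. The sum for myeloid and mast cells (999.8 to 2886.5) did not set that array apart, but the mast cell proteases Mcpt1 (331.8 against 13 to 57.5) and Mcpt2 (245.1 against 5.5 to 23.8) and the lysozyme Lyz2 (303 against 5.4 to 11.4) did. Marker sums did not set it apart for CD4 T cells (107.1 to 300.2), fibroblasts and endothelium (832.2 to 1473.1) or erythroid cells (66.8 to 224.7). The 8 T cell and sort markers summed to 68825 to 100109 in experiment 1 and 34509.3 to 53044.9 in experiment 2. With a term for subset, limma called 7 of the 8 lower and 1, Cd8b1, higher in experiment 2, with a median of −1.03. Without that term it called 5 lower and 0 higher. Cd8b1 went from 29.5 to 182.1 in TCRab CD8aa, from 28.1 to 763 in TCRgd CD8aa and from 17647 to 27590.5 in TCRab CD8ab. In such sorted bulk samples, fewer cells of a type and less RNA per cell cannot be told apart.

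**Figure D1:**
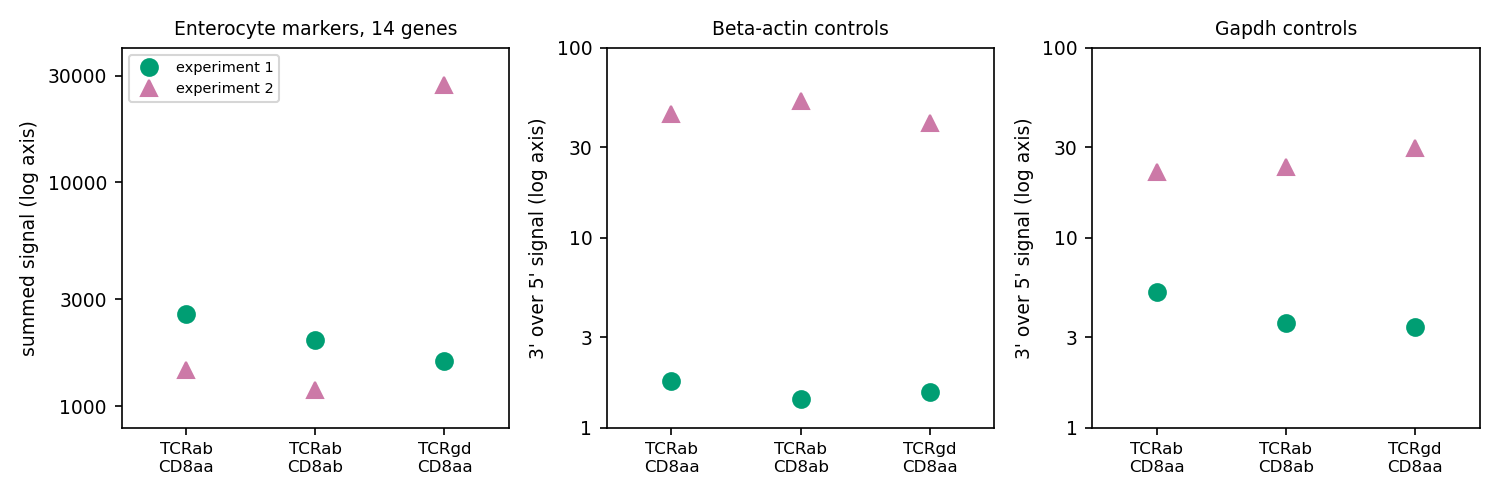
Checks of the 6 arrays by subset (horizontal axis) and experiment (circle, experiment 1; triangle, experiment 2), with 1 point per array and a log vertical axis. Left, summed signal of 14 enterocyte markers, 27208.9 on TCRgd CD8aa of experiment 2; middle and right, 3′ over 5′ signal ratio of the beta-actin and Gapdh controls, which separated the 2 experiments without overlap.

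Hsp90aa1, the stress-inducible Hsp90 of the cytosol, which matures kinases and steroid receptors, gave strong signal on every array (probe set 95282_at). In experiment 1 its signal was 6752.5 in TCRab CD8aa, 13292.7 in TCRab CD8ab and 11612.4 in TCRgd CD8aa. In experiment 2 it was 11235.2, 10268.9 and 22278.9 in the same order. It was lowest in TCRab CD8aa of experiment 1 and highest in TCRgd CD8aa of experiment 2, a range of 3.3 times. Both TCRgd CD8aa arrays lay above both TCRab CD8aa arrays, narrowly, at 11612.4 against 11235.2. The other probe set of the gene, 161869_i_at, was dim, with signals of 27.5, 32.7 and 20.6 in experiment 1 and 1.4, 8.6 and 8.5 in experiment 2, all 3 of the latter under the floor of 15.3. It failed the filter and was not tested.

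Hspa1a, the classical heat-inducible Hsp70, had almost the same signal in the 3 subsets of experiment 1, with 7343.1 in TCRab CD8aa, 6228.4 in TCRab CD8ab and 6450 in TCRgd CD8aa. In experiment 2 it was 9641.7, 18553.5 and 26754.4. The 3 arrays of experiment 2 all lay above those of experiment 1, and the subsets lay farther apart there, a difference in spread that was not tested. Its near-identical neighbour Hspa1b, whose transcripts the probes may not tell apart from those of Hspa1a, followed the same order of experiments. Hspa1b (100946_at) had 5747.9, 5263.6 and 5190.3 in experiment 1 and 12534.9, 23085.9 and 24825.2 in experiment 2, so these 2 genes need not be separate signals.

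Hspa8, the constitutive Hsp70 that also uncoats clathrin vesicles, ran the other way. Its signal was 6962.3, 11623.8 and 7736.9 in TCRab CD8aa, TCRab CD8ab and TCRgd CD8aa of experiment 1, and 4093.5, 7656.7 and 5016.3 in experiment 2. In each experiment TCRab CD8ab was highest and TCRab CD8aa lowest, and every subset was lower in experiment 2. No other tested chaperone had this order of subsets in both experiments. Its TCRab CD8ab arrays both lay above both TCRab CD8aa arrays, but the TCRgd CD8aa array of experiment 1 exceeded the TCRab CD8ab array of experiment 2, 7736.9 against 7656.7.

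Dnaja1, an Hsp40 that delivers unfolded proteins to Hsp70 and stimulates its ATPase, had 8548.4, 6562.6 and 6415.2 in experiment 1 and 15191.8, 9483.3 and 28859.7 in experiment 2. All 3 arrays of experiment 2 lay above those of experiment 1. TCRab CD8aa was above TCRab CD8ab in each experiment, while TCRgd CD8aa was the lowest subset in experiment 1 and the highest in experiment 2.

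Hspd1 and Hspe1 encode Hsp60 and Hsp10, the barrel and the lid of the chaperonin that folds proteins imported into mitochondria. Hspd1 (93277_at) had 3857.4, 5385.7 and 4837.5 in experiment 1 and 11492.7, 7706.2 and 18472.8 in experiment 2, with no overlap between experiments and the widest range among the bright probe sets, 4.79 times. Its dimmer probe set 161140_r_at had 30.9, 62.1 and 128.7 in experiment 1 and 184.1, 242.1 and 289.7 in experiment 2. That order of subsets, with TCRab CD8aa lowest and TCRgd CD8aa highest, differs from the one of the brighter probe set. Hspe1, which shares its promoter with Hspd1, had 1299.5, 2176.9 and 1503.6 in experiment 1 and 2309.6, 2354.7 and 2668.5 in experiment 2. Experiments did not overlap for Hspe1 either, yet the TCRab CD8ab arrays lay close together.

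Hspa5, also called BiP, is the Hsp70 of the endoplasmic reticulum and holds the unfolded protein response in check. Its signal was 8716.2, 10857.3 and 10286.7 in experiment 1 and 9599.6, 11252.4 and 13499.6 in experiment 2. It was the steadiest of the 8 tested probe sets, with a range of 1.55 times over the 6 arrays. Both TCRab CD8aa arrays lay under the 4 others.

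**Figure D2:**
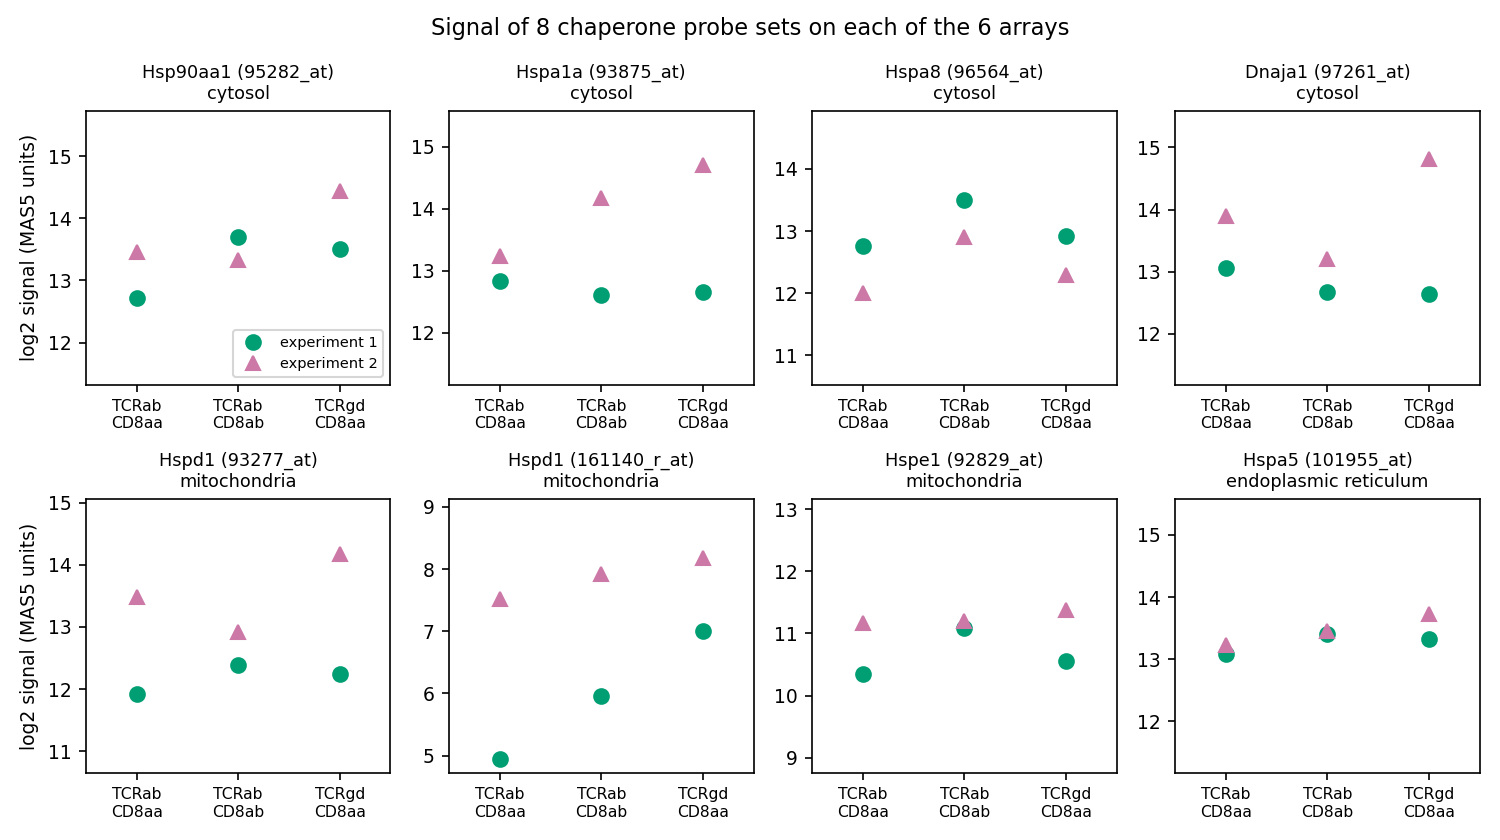
Signal of the 8 tested chaperone probe sets (vertical axis, log2 of MAS5 units, the same span in each panel) on each array, by subset (horizontal axis) and experiment (circle, experiment 1; triangle, experiment 2). Triangles lie above circles in every subset for Hspa1a, Dnaja1, Hspe1, Hspa5 and both Hspd1 probe sets and below them for Hspa8, and the triangle of TCRgd CD8aa is the highest point of 7 panels.

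The array of TCRgd CD8aa in experiment 2 was the highest of the 6 for 7 of the 8 tested chaperone probe sets, and for 15% of all tested probe sets. Lowest signals fell on TCRab CD8aa of experiment 1 for 5 of the 8, and for 14.3% of all. The first of these arrays is the one with high enterocyte markers, whose part in the chaperone values was not tested.

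The question of the subset comparisons was whether unconventional and conventional IEL differ, and for the chaperones no difference passed the test in any pair of subsets. A probe set was called where limma's Benjamini-Hochberg adjusted p over all 8299 tested probe sets was under 0.05. The planned fit took no account of the experiment, and the alternative had the replicate number, which is the experiment and its pool, as a block. Differences below carry the standard error of the blocked fit, since the experiments differ widely, with n = 2 arrays per subset. Whether arrays overlapped is described for single genes only, as the share of all probe sets without overlap was not counted.

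Between TCRab CD8aa and TCRab CD8ab, 0 of the 8 chaperone probe sets were called in either fit. Over all probe sets limma called 0, or 0%, without the block and 68, or 0.819%, with it, and 187 and 837 had an unadjusted p under 0.05. Among the chaperones, 0 had such a p without the block and 1 with it. That one was Hspa8, lower in TCRab CD8aa by log2 −0.82 ± 0.28 (SE, 95% interval −1.45 to −0.2), or 0.566-fold, with limma's unadjusted p of 0.0155 and adjusted p of 0.373 with the block. The difference was −0.74 in experiment 1 and −0.90 in experiment 2. Hspa5 had −0.27 ± 0.29, with −0.32 and −0.23 in the 2 experiments. Dnaja1 had the opposite sign, 0.53 ± 0.40, from 0.38 and 0.68. Hsp90aa1 (−0.42 ± 0.37), Hspa1a (−0.35 ± 0.40) and Hspd1 (0.05 ± 0.37) changed sign between experiments. For Hspd1 the interval of the difference, −0.78 to 0.88, allows a sizeable change either way. Hspe1 stood at −0.39 ± 0.31, from −0.74 in experiment 1 and only −0.03 in experiment 2. The dim Hspd1 probe set stood at −0.70 ± 0.52, from −1.01 and −0.40, unlike the bright one, which changed sign. Blocked adjusted p-values of these 7 ran from 0.696 to 0.977. The median over the 8 probe sets was −0.37, beside −0.08 over all tested, and 4 were lower and 1 higher in both experiments, where 30.1% and 22.9% of all were.

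Between TCRgd CD8aa and TCRab CD8ab, 0 of the 8 were again called. All probe sets gave 0 calls, or 0%, without the block and 46, or 0.554%, with it, and 168 and 681 unadjusted p-values under 0.05, none of them of a chaperone. Hspa8 came nearest, at −0.60 ± 0.28 (interval −1.22 to 0.03, limma adjusted p = 0.635 with the block), and its difference was nearly equal in the 2 experiments, −0.59 and −0.61. Dnaja1 had 0.79 ± 0.40, which came from experiment 2, with −0.03 in experiment 1 and 1.61 in experiment 2. Hsp90aa1 (0.46 ± 0.37, from −0.20 and 1.12) and Hspd1 (0.55 ± 0.37, from −0.16 and 1.26) showed the same split. Hspa1a stood at 0.29 ± 0.40, the dim Hspd1 probe set at 0.66 ± 0.52, Hspe1 at −0.18 ± 0.31 and Hspa5 at 0.09 ± 0.29. The median over the 8 was 0.38, beside −0.06 over all tested, and 2 were higher and 1 lower in both experiments, where 22.9% and 28.7% of all were. The positive values of experiment 2 all rest on the array with the high enterocyte markers. In experiment 1, where that array has no part, Hspa1a had 0.05, the dim Hspd1 probe set 1.05, Hspe1 −0.53 and Hspa5 −0.08. Without that array, in limma with the block and with 1 TCRgd CD8aa array assumed to vary like the others, Dnaja1 had 0.04, Hsp90aa1 0.08, Hspd1 0.11, Hspa1a −0.25 and Hspa5 −0.06. That fit is given for these probe sets only, and not every difference was smaller without the array. In experiment 1 alone the dim Hspd1 probe set (1.05) and Hspe1 (−0.53) had larger differences than over both experiments (0.66 and −0.18). Hspa8 had nearly the same one (−0.59 against −0.60).

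Between the 2 CD8aa subsets, 0 of the 8 were called, and over all probe sets 0, or 0%, without the block and 2, or 0.0241%, with it. Unadjusted p-values under 0.05 numbered 34 and 172, of which 0 and 2 belonged to chaperones. One of these was Hsp90aa1, higher in TCRgd CD8aa by 0.89 ± 0.37 (interval 0.06 to 1.71), or 1.85-fold, with 0.78 in experiment 1 and 0.99 in experiment 2. The experiment 2 value rests on the array with the high enterocyte markers. With the block the difference was 0.51 without that array and 0.66 without TCRab CD8aa replicate 1, and with 1 array left out in either fit it ranged from 0.41 to 1.35. The other was the dim Hspd1 probe set, with 1.36 ± 0.52 from 2.06 and 0.65, while the bright one gave 0.51 ± 0.37 from 0.33 and 0.69. Limma's unadjusted p-values were 0.038 and 0.0282, and the adjusted p was 0.9999 for all 8 with the block. In 6 of the 8 the difference was positive in both experiments and in 0 negative, where 23.9% and 24.8% of all tested probe sets were, and the median was 0.44 beside 0.00 over all. The 6 include both probe sets of Hspd1, and every experiment 2 value of this comparison rests on the array with the high enterocyte markers. Hspa1a (0.64 ± 0.40, from −0.19 and 1.47) and Dnaja1 (0.26 ± 0.40, from −0.41 and 0.93) were the 2 that changed sign. Hspa8 (0.22 ± 0.28), Hspe1 (0.21 ± 0.31) and Hspa5 (0.37 ± 0.29) completed the set. The 3 subset comparisons share arrays, so their values are set side by side and not counted as separate evidence.

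**Figure D3:**
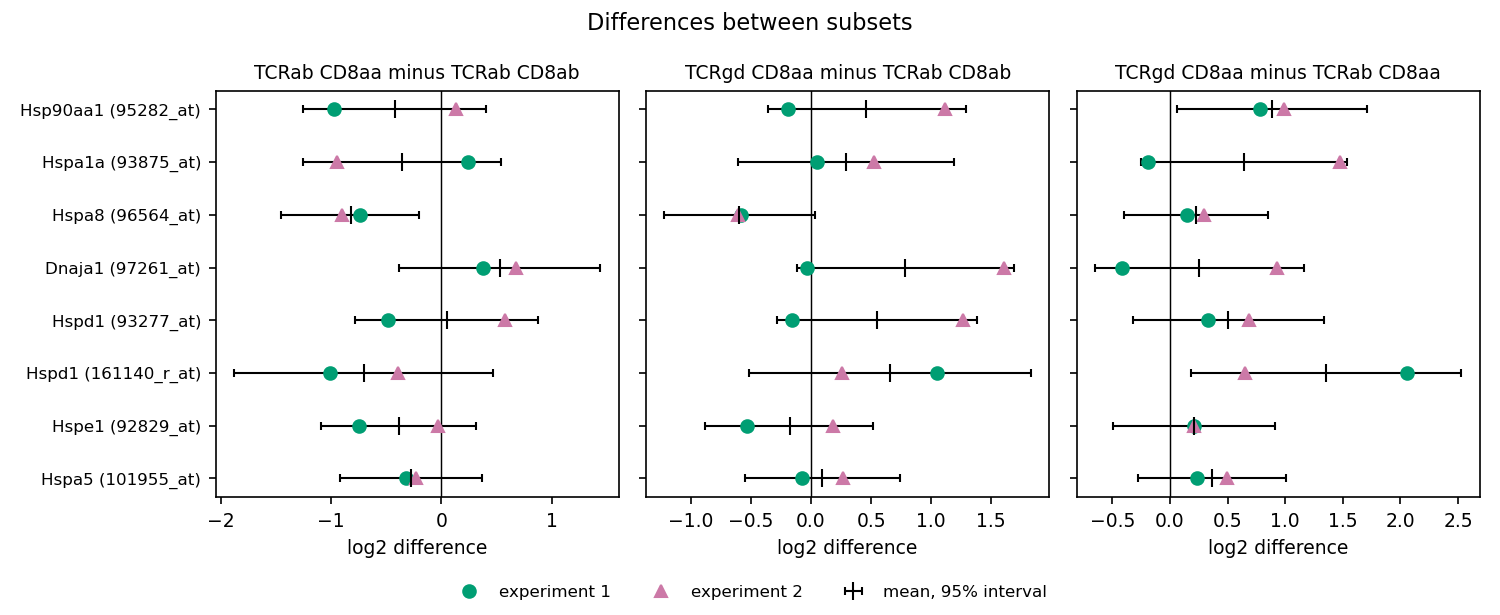
Log2 difference of each tested chaperone probe set (rows) in the 3 subset comparisons (panels). Circles and triangles give experiments 1 and 2, vertical ticks their mean and horizontal bars the 95% interval of the blocked limma fit; only Hspa8 in the first panel, and Hsp90aa1 and the dim Hspd1 probe set in the third, have intervals that leave out 0, and none passed adjustment.

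The chaperone differences that passed the test lay between the experiments. Each experiment was 1 pool of mice, so these tests compared 1 pool with 1 pool, with the 3 subsets as pairs of arrays. With subset in the model, limma called 5 of the 8 probe sets, and 2827 of all 8299, or 34.1%. Of the chaperones 4 were higher and 1 lower in experiment 2, where 13.7% of all probe sets were called higher and 20.4% lower. Hspd1 was higher by log2 1.34 ± 0.30 (SE, n = 3 pairs of arrays), or 2.53-fold, with an adjusted p of 0.00842 by limma, and its dim probe set by 1.90 ± 0.43, or 3.74-fold, with 0.00836. Hspa1a was higher by 1.34 ± 0.33, or 2.53-fold, with limma's adjusted p of 0.0121. Dnaja1 was higher by 1.18 ± 0.33, or 2.26-fold, with 0.0225. Hspa8 was lower by −0.66 ± 0.23, or 0.631-fold, with limma's adjusted p of 0.0482. Hspd1, Hspa1a and Dnaja1 were thus called higher, and Hspa8, with an adjusted p just under the threshold, lower, in the same 3 arrays.

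Hspe1, the partner of Hspd1, had 0.59 ± 0.25 and an adjusted p of 0.102 in limma, although its experiments did not overlap. Hsp90aa1 had 0.43 ± 0.30 (adjusted p = 0.291) and Hspa5 0.19 ± 0.23 (adjusted p = 0.558). Neither passed. The interval of Hspa5 was −0.33 to 0.72 and that of Hspd1 0.66 to 2.02, and the difference between the genes was not tested. By place in the cell, 2 of the 4 cytosolic genes were called higher and 1 lower, 1 of the 2 mitochondrial genes higher, and the 1 gene of the endoplasmic reticulum was not called. Over the 8 probe sets the median was 0.88, beside −0.02 over all tested, and 6 were higher and 1 lower in every subset, where 28.4% and 32.7% of all were.

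Subsets did not contribute alike. The difference of Hspa1a was 0.39 in TCRab CD8aa, 1.58 in TCRab CD8ab and 2.05 in TCRgd CD8aa. For Dnaja1 it was 0.83, 0.53 and 2.17, and for Hspd1 1.58, 0.52 and 1.93. Hspa8 was the even one, with −0.77, −0.60 and −0.63. Hspe1 had 0.83, 0.11 and 0.83, Hspa5 0.14, 0.05 and 0.39, and the dim Hspd1 probe set 2.58, 1.96 and 1.17. Each of these values rests on 1 array per experiment, and whether subsets differ in them was not tested.

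**Figure D4:**
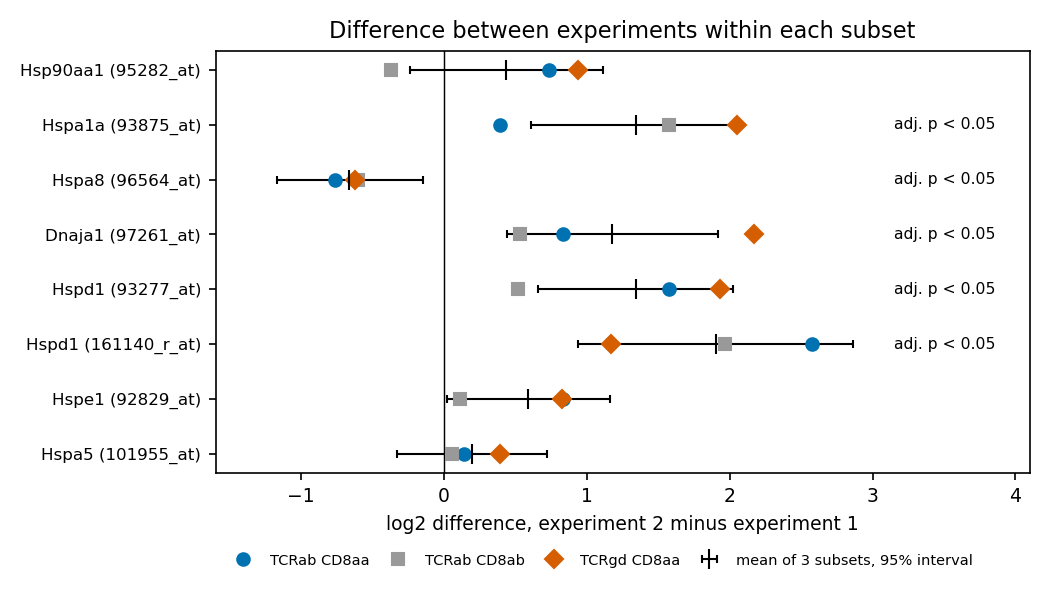
Log2 difference between experiment 2 and experiment 1 of each tested chaperone probe set (rows) in TCRab CD8aa (circle), TCRab CD8ab (square) and TCRgd CD8aa (diamond). Vertical ticks give the mean of the 3 subsets and bars limma's 95% interval; the label at the right marks the 5 probe sets with an adjusted p under 0.05, of which Hspa8 alone is lower in experiment 2.

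The experiment is a pool, an occasion and a level of RNA quality at once, and these cannot be told apart here. The T cell markers, lower in experiment 2 as given above, moved with it too, and their part in the chaperone differences was not tested. Single arrays decided some calls. Without either TCRgd CD8aa array the Dnaja1 difference was 0.68, with limma adjusted p of 0.18 and 0.166. Without TCRab CD8aa replicate 2 the dim Hspd1 probe set had 1.57 and 0.0689. The call of Hspa8 was lost whichever array was left out, with −0.61 to −0.70 and adjusted p of 0.0597 to 0.188, and without a term for subset (0.125). Hspe1 (0.83) and Hsp90aa1 (0.84) passed without either TCRab CD8ab array, with limma adjusted p of 0.0234 and 0.0245, and 0.0461 and 0.0473. Hspa1a and the bright Hspd1 probe set kept their calls in each of these 6 fits. In the fit without the array of high enterocyte markers, the dim Hspd1 probe set was the only other chaperone probe set called. With no filter on dim probe sets limma called 0 chaperones and 506 probe sets in all. Without the intensity trend it called 2 chaperone probe sets, both of Hspd1, so Hspa1a lost its call there.

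Other genes of the folding machinery were read from lists, with 1 probe set per gene. Of 104 tested list genes limma called 0 between subsets in either fit. Of all genes it called 0% without the block and, in the order below, 0.9%, 0.573% and 0% with it. In TCRab CD8aa against TCRab CD8ab, 3 list genes had an unadjusted p under 0.05 in limma without the block and 12 with it. In TCRgd CD8aa against TCRab CD8ab the numbers were 1 and 11, and between the CD8aa subsets 1 and 2. Over all tested probe sets the shares without and with the block were 2.25% and 10.1%, 2.02% and 8.21%, and 0.41% and 2.07%. Between experiments 35.6% of all 6109 genes were called, 14.4% higher and 21.1% lower. Of 31 tested genes of the cytosolic Hsp70 and Hsp90 machinery, 10 were higher and 9 lower in experiment 2, with a median of 0.21 beside −0.03 over all genes. Bag3, a stress-induced cochaperone of Hsp70, was higher by log2 1.75 ± 0.24, and Dnajb4, a J-domain protein, by 1.92 ± 0.26. Cdc37, which brings kinases to Hsp90, was lower by −1.97 ± 0.27 and Unc45a, an Hsp90 cochaperone for myosin, by −2.69 ± 0.33. Their adjusted p in limma ran from 0.000516 to 0.000981. Genes that work beside the chaperones above, chosen after their values were seen, also split. Hspa1b was higher by 1.84 ± 0.28, and so were the Hsp110 exchange factors Hsph1 (1.60 ± 0.26) and Hspa4 (1.19 ± 0.24), with limma adjusted p of 0.00156, 0.00189 and 0.00465. Stip1, which links Hsp70 to Hsp90, was lower by −1.0 ± 0.32 (limma adjusted p = 0.0367), and Dnajb1, the heat-inducible J-domain protein, had −0.19 ± 0.26 and did not pass (adjusted p = 0.618).

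The cytosolic chaperonin and prefoldin, which fold actin and tubulin, gave 3 higher and 3 lower of 13 tested genes, with a median of −0.10. Cct6a was higher by 1.61 ± 0.26 while Cct7 (−1.21 ± 0.22) and Cct3 (−1.19 ± 0.23), subunits of the same ring, and the tubulin cofactor Tbca (−1.46 ± 0.33) were lower. Among 13 mitochondrial chaperones and proteases 3 were higher and 5 lower, with a median of −0.14. The protease Clpp (−2.50 ± 0.32), the prohibitin Phb2 (−1.99 ± 0.28), the import factor Timm44 (−1.85 ± 0.33) and the protease Htra2 (−1.35 ± 0.25) were lower. Hspa9, the mitochondrial Hsp70, named after its value was seen, was higher by 0.71 ± 0.22 (limma adjusted p = 0.0361).

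Of 26 tested genes of the endoplasmic reticulum and the unfolded protein response, 4 were higher and 7 lower in experiment 2, with a median of −0.03. P4hb, a disulfide isomerase, was higher by 2.54 ± 0.29. Atf4, the transcription factor of the integrated stress response, was lower by −3.34 ± 0.27, Ppp1r15a, which ends that response, by −1.64 ± 0.28, and Herpud1, a degradation factor, by −1.56 ± 0.25. Hsp90b1, the Hsp90 of this organelle, named after its value was seen, had 0.54 ± 0.25 and like Hspa5 did not pass (limma adjusted p = 0.125). All 21 immediate early genes on the array, which respond within minutes to activating signals, were tested, and 6 were higher and 7 lower, with a median of −0.57. Nfkbia (2.50 ± 0.25), Fosb (2.03 ± 0.32) and Egr1 (1.62 ± 0.24) were higher and Junb was lower by −5.16 ± 0.28.

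**Figure D5:**
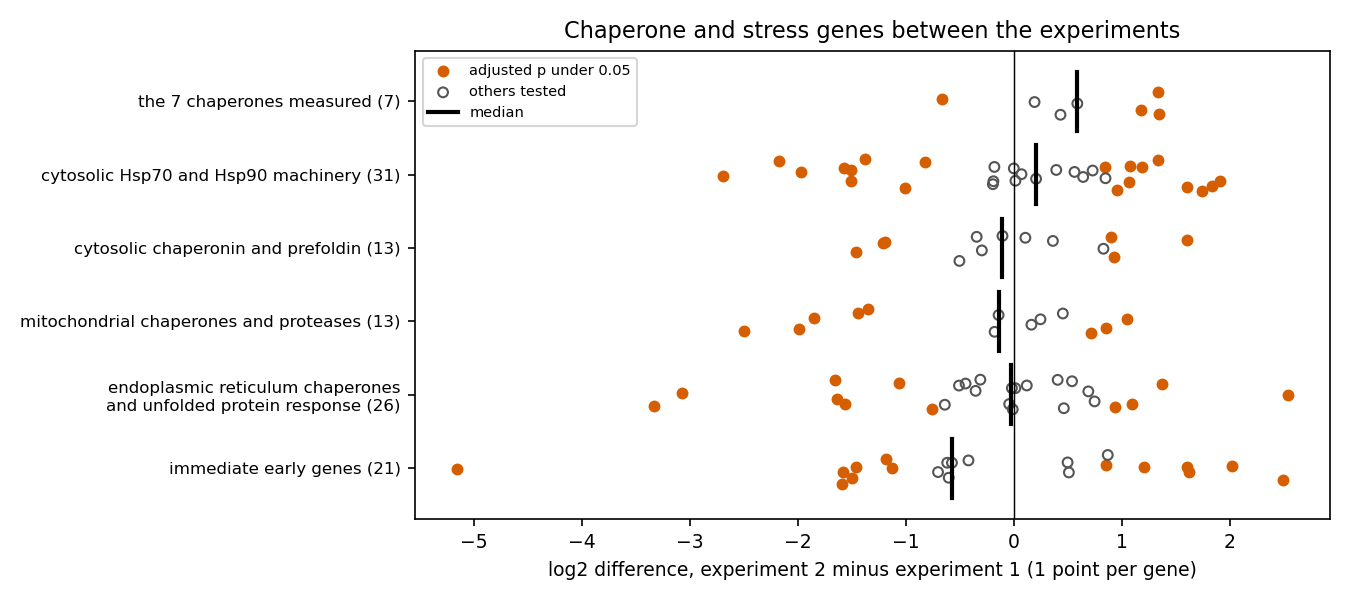
Log2 difference between experiment 2 and experiment 1 (horizontal axis) for the 7 chaperone genes and 5 gene lists (rows, number of tested genes in brackets), with 1 point per gene from its brightest probe set and random vertical scatter. Filled points passed limma's adjusted p of 0.05, open points did not, and bars are medians; every list has filled points on both sides of 0.

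Between subsets the list genes with the smallest p-values in the blocked fit are given for their size, as none passed. Bag3 was −1.38 ± 0.30 in TCRab CD8aa against TCRab CD8ab (limma adjusted p = 0.0952) and −1.14 ± 0.30 in TCRgd CD8aa against TCRab CD8ab (0.227). Its log2 signals were 8.61, 9.93 and 8.7 in TCRab CD8aa, TCRab CD8ab and TCRgd CD8aa of experiment 1 and 10.21, 11.66 and 10.61 in experiment 2, so TCRab CD8ab was highest each time, as for Hspa8. Hspa2, an Hsp70 best known from the testis, had the opposite order, 1.53 ± 0.53 and 1.75 ± 0.53 in the same comparisons. In the immediate early list, Gadd45b had −2.16 ± 0.43 (limma adjusted p = 0.0677) and Dusp2 −1.65 ± 0.33 (0.0661) in TCRab CD8aa against TCRab CD8ab, and −1.54 ± 0.43 and −1.68 ± 0.33 in TCRgd CD8aa. Cct5 was −0.54 ± 0.30 and −0.78 ± 0.30, Ppp1r15a −1.13 ± 0.34 and Dnajb9, a J-domain protein of the endoplasmic reticulum, 0.92 ± 0.40 in the first of these comparisons. Tomm20, the import receptor of mitochondria, had −1.50 ± 0.51 in TCRab CD8aa against TCRab CD8ab and 2.01 ± 0.51 in TCRgd CD8aa against TCRab CD8aa. Between the CD8aa subsets, Hspbp1 stood at −1.36 ± 0.59, Hspa14 at −0.68 ± 0.38, Pdia4 at 0.70 ± 0.48 and Serp1 at 0.59 ± 0.33. The others with the smallest p of their list (Tcp1, Cct6a, Cct7, Cct3, Grpel1, Timm44, Tomm70a, Sel1l, Herpud1, Egr1 and, between the CD8aa subsets, Gadd45b) lay between −0.79 and 0.72. List medians in the 3 comparisons lay between −0.39, for immediate early genes in TCRab CD8aa against TCRab CD8ab, and 0.19, for the same list between the CD8aa subsets.

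How the chaperones varied together is given as a description over the 6 arrays, which share 2 pools of mice and 2 levels of RNA quality. Dnaja1 and Hspd1 had a Pearson's r of 0.924, or 0.803 after each experiment was centred on its mean. Hsp90aa1 and Hspa5 had 0.907 and 0.886, and Hspd1 with its promoter partner Hspe1 0.845 and 0.531. Hspa8 had −0.782 with Dnaja1 (−0.543 centred), −0.684 with Hspd1 (−0.241) and −0.473 with Hspa1a (0.266). It had −0.275 with Hspe1 (0.602), −0.192 with Hsp90aa1 (0.154) and −0.043 with Hspa5 (0.472). Only those with Dnaja1 and Hspd1 were negative both ways, and the others were positive once experiments were centred. Genes most like the mean of the cytosolic members over the 6 arrays were Reg3b (r = 0.994), Srp14 (0.987), Agrn (0.986), Galm (0.985) and Cd24a (0.984), among 4941 candidates. With experiments centred they were Reg3b (0.994), Cd24a (0.993), Msrb1 (0.992), Mkrn1 (0.991) and Lypd8 (0.989) among 4854. Reg3b is an antimicrobial lectin of the gut epithelium and Lypd8 a surface protein of enterocytes, and the part of the high enterocyte markers of the TCRgd CD8aa array of experiment 2 in these likenesses was not tested. The mitochondrial mean was most like Taf1d (0.995), Marchf7 (0.989), Rbm39 (0.989), Dennd4c (0.988) and Nfkbiz (0.986), and centred like Tob1 (0.992), Slc2a3 (0.989), Chga (0.988), Ighv1-54 (0.985) and Taf1d (0.979). Hspa5 was most like Cd74 (0.976), Il1r2 (0.972), Lypd8 (0.959), Rab4a (0.947) and Kcnj11 (0.944), and centred like Cd74 (0.977), Cd86 (0.975), Nt5dc2 (0.972), Dnajb9 (0.971) and Trp53i13 (0.964). Cd74 and Cd86 are genes of antigen-presenting cells.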

How the data were processed

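The authors deposited MAS5 signal intensity per probe set and array, per the submitters' processing notes (version not given), linear and scaled to a common trimmed mean. Detection calls and probe positions were not used here. Each array was rescaled to the same mean after trimming 2% at each end (factors 0.999915 to 1.00006). Values under the 20th percentile (15.3) were raised to it and log2 was taken. A probe set was tested if at least 2 arrays exceeded the 40th percentile (56.4), which left 8299 of 12488. Of the 12488, 66 were controls, 10833 had 1 symbol, 396 several and 1193 none in the platform annotation.

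All 6 arrays entered each limma fit (version 3.58.1, R 4.3.3), which used the intensity trend and was tested on simulated data. The planned fit had 3 residual degrees of freedom and the blocked one 2. The series' design text pairs replicate numbers by pool. Deviations of same-numbered arrays correlated across probe sets at 0.618, 0.713 and 0.603. Standard errors are limma's moderated ones, and intervals cover 95%. The low number of arrays, 2 per subset, limits how precise the values are.

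All chaperone probe sets are named. List genes are named by smallest p, up to 4 past the threshold per list and comparison, otherwise 2 from the blocked fit. Genes most alike are the 5 with the highest r. The chaperones and lists were chosen with earlier results of these data known, and no list was tested. Motifs were searched in the RefSeq promoter table.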

Additional observations from a re-analysis of the deposited data

Results flagged for a closer look

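Hsp90aa1 (95282_at) moved one way between experiments in 2 subsets and the other way in 1. On the log2 scale, experiment 2 minus experiment 1 gave 0.73 for TCRab CD8aa, −0.37 for TCRab CD8ab and 0.94 for TCRgd CD8aa. Each value compares 1 array with 1 array, so the difference between subsets was not tested. Without either TCRab CD8ab array the mean of the other subsets was 0.84 and passed limma's threshold, with adjusted p of 0.0461 and 0.0473. The group sizes of 2 and 3 arrays are too small for the search for single deviating arrays, which was not run.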

How the results depend on the processing

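In the 3 subset comparisons 0 chaperone probe sets were called under every setting tried, with or without the replicate block. Over all probe sets the counts without the block were 0 under every setting, so the sort marker Cd8b1 was not called there either. With the replicate block limma called 68, 46 and 2 for TCRab CD8aa against TCRab CD8ab, TCRgd CD8aa against TCRab CD8ab and TCRgd CD8aa against TCRab CD8aa. With the block they were 6, 3 and 1 without the intensity trend, and 72, 50 and 1 after quantile normalization. Leaving out each array in turn, with and without the block, gave 0 to 182, 0 to 193 and 0 to 114, the highest each time with the block and without TCRgd CD8aa replicate 1. With the block, the counts for the first comparison were also 173 without TCRab CD8ab replicate 1, 167 without TCRgd CD8aa replicate 2, and 34 and 22 without TCRab CD8aa replicates 1 and 2. For the second they were 97 and 30 without TCRab CD8ab replicates 1 and 2, and for the last 5 and 1 without TCRgd CD8aa and TCRab CD8aa replicate 2. Between experiments the counts were 506 and 0 (all probe sets and chaperone probe sets) without the filter. Without the intensity trend 2 chaperone probe sets were called, both of Hspd1. With 1 array left out the counts were 1880 to 2941 and 3 to 6. The 1880 came without TCRab CD8aa replicate 2, and 3 chaperones were called without that array or either TCRgd CD8aa array. Quantile normalization moved the median of all probe sets between experiments from −0.02 to 0.08.

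Of 208 values per subset comparison, 198, 193 and 194 kept their sign and call, and 10, 15 and 14 changed sign, none of them called. Between experiments 106 of 128 kept both, 18 lost and 4 gained a call, and 0 changed sign. Dnaja1 in TCRgd CD8aa against TCRab CD8aa turned to −0.1 after quantile normalization, with or without the replicate block. With 1 array left out, the differences that changed sign ranged as follows. In TCRab CD8aa against TCRab CD8ab, Hsp90aa1 ranged from −1.03 to 0.18, Hspa1a from −1.14 to 0.43, Hspd1 from −0.74 to 0.84, its dim probe set from −1.99 to 0.59 and Hspe1 from −0.8 to 0.03. In TCRgd CD8aa against TCRab CD8ab, Hsp90aa1 ranged from −0.14 to 1.07, Hspa1a from −0.74 to 1.32, Dnaja1 from −0.3 to 1.87, Hspd1 from −0.41 to 1.52, its dim probe set from −0.33 to 1.64, Hspe1 from −0.59 to 0.24 and Hspa5 from −0.1 to 0.29. In TCRgd CD8aa against TCRab CD8aa, Hspa1a ranged from −0.38 to 1.67, Hspa8 from −0.16 to 0.61, Dnaja1 from −0.83 to 1.34, Hspd1 from −0.46 to 1.47 and Hspe1 from −0.21 to 0.62. Hspa8 kept its sign against TCRab CD8ab in both CD8aa subsets, and the causes of the changes were not tested. Where an array was left out its subset had 1 array, assumed to vary like the others. Without the block, such a value also takes in the difference between the experiments.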
